A study of Rattus norvegicus with 25 samples.

Results

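The 6 genes described here form the core of the aryl hydrocarbon receptor pathway: Ahr, Arnt, Ahrr, Cyp1a1, Cyp1b1 and Tiparp. They were chosen by symbol, as the receptor, its partner, its repressor and genes that it is known to induce. All 6 were found among 30547 genes, as 10 of 41078 annotated transcripts, and all 6 passed the filter on low counts. RNA was sequenced from the gingiva of 25 male wild-type Sprague-Dawley rats, with 1 library per rat and 5 rats in each of 5 groups. The rats were 6 weeks old in the sample labels and 8 weeks old in the study's methods. In the Cur/ZNP gel, ZNP gel, Cur gel and EP groups, experimental periodontitis (EP) was induced with silk ligatures on the maxillary first molars of both sides, followed after 3 days by Porphyromonas gingivalis ATCC 33277. Methylcellulose hydrogels of 200 µL were then placed in the periodontal pockets weekly for 4 weeks. The Cur gel held curcumin and the ZNP gel held zinc oxide nanoparticles at 2 mg/mL, whereas the Cur/ZNP gel held 1 mg/mL of each, so that the dose of each agent differed between the combined and the single gels. Sham rats had no ligature and received hydrogel without drug. Whether the EP rats received this hydrogel was not stated in the sources used here. Gingiva is a mixed tissue of epithelium, connective tissue, vessels and immune cells, so that in these bulk libraries fewer cells of a type and less RNA per cell cannot be told apart.

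The aryl hydrocarbon receptor, encoded by Ahr, is a ligand-activated transcription factor of the basic helix-loop-helix PAS family. It resides in the cytoplasm with HSP90 and partner chaperones, binds planar aromatic pollutants, tryptophan metabolites and some plant polyphenols, and then enters the nucleus. There it pairs with ARNT, the product of Arnt, and the pair binds DNA at a short element with the core GCGTG. Cyp1a1 and Cyp1b1, which encode monooxygenases that oxidize many of the ligands, are its classical target genes. Ahrr and Tiparp are targets that act back on the pathway: the repressor AHRR competes with the receptor for ARNT, and TIPARP is an ADP-ribosyltransferase that lowers receptor activity. In barrier epithelia the pathway is known for its part in differentiation and in responses to microbes. Curcumin has been described as a ligand of the receptor in cultured human cells, which makes the gels with curcumin a comparison of interest.

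The promoter windows of the genes were searched for the core of the binding element. RefSeq gave a window from 250 bases before to 50 bases after the transcription start for 5 of the 6 genes, in build GRCr8. The gene without a window was Cyp1a1, a classical target. GCGTG, searched on both strands, was present in 29.7% of the 33469 rat windows of the same 300 bases. The Ahrr window held 3 copies on the forward strand, at 142, 117 and 57 bases before the start. At least 3 copies were found in 3.59% of all windows. The Cyp1b1 window held 1 copy on each strand, at 20 bases before the start on the forward strand and at 81 bases before it on the reverse strand. At least 2 copies were found in 10.2% of all windows. The Tiparp window held 1 copy, on the reverse strand at 136 bases before the start. These windows lie at chr1:30821969-30822268 (plus strand, Ahrr), chr6:21094315-21094614 (plus strand, Cyp1b1) and chr2:152063519-152063818 (plus strand, Tiparp), and are printed with the core, or its complement CACGC, in capitals.
Ahrr: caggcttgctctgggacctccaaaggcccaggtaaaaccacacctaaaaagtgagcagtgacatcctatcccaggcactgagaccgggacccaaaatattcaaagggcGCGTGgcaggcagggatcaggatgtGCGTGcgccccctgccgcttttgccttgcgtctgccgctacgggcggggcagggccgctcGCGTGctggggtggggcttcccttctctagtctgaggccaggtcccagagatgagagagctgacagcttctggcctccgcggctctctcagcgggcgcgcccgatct
Cyp1b1: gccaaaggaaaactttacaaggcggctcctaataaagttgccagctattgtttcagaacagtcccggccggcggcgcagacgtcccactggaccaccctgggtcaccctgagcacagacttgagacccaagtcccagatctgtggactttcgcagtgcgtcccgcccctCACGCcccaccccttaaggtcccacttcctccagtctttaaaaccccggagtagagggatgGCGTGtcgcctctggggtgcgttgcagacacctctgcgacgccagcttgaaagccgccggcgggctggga
Tiparp: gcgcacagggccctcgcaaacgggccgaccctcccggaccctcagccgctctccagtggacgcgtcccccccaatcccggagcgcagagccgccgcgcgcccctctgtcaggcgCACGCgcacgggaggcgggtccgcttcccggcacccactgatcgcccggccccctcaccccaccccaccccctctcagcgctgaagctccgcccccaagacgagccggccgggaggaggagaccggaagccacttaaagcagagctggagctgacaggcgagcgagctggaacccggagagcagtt
The Arnt window held 1 copy, 42 bases before the start, and the Ahr window held 0. The letters do not show whether a site was occupied, and sites outside the windows were not searched.

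The libraries held 50690789 to 81791804 reads, with a median of 62227570. Values are normalized read counts, that is, reads divided by a size factor per library. They were compared as log2(normalized count + 1) with limma in 1 model of all 25 libraries, and p-values were adjusted by the Benjamini-Hochberg method over 16092 genes, with a threshold of 0.05. Keratinocyte and fibroblast markers were detected in every group. Some libraries stood apart. Summed normalized counts of 8 autonomic neuron markers (Vip, Chrna3, Phox2a, Dbh, Th, Snap25 and Nefl among them) were 50399, 103155 and 40764 in Sham 1, Sham 3 and Sham 4, and 34423 in Cur/ZNP gel 2, and were at most 1292 in the other 21 libraries. Nasal gland genes took 22.2%, 17.0% and 21.1% of the reads in Sham 4, EP 3 and EP 4, and at most 0.153% elsewhere. Results against sham are therefore also given without Sham 1, Sham 3 and Sham 4, an alternative chosen after seeing the data.

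In EP gingiva the receptor gene was lower and its partner gene was higher than in sham gingiva. Arnt rose 2.26-fold, Tiparp rose 1.80-fold and Ahr fell to 0.643 of its sham level, whereas Ahrr, Cyp1a1 and Cyp1b1 did not pass the test. Thus 3 of the 6 genes were called (2 higher and 1 lower), against 37.6% of all genes tested, with 18.8% called in each direction. The median log2 fold change was 0.34 over the 6 genes and 0.01 over all genes.

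Ahr in the EP rats had normalized counts of 2088, 2248, 2686, 2134 and 2087, against 3683, 3584, 3538, 3159 and 3456 in the sham rats. Every EP rat was below every sham rat, a separation in that direction that 8.47% of genes showed. The means were 2249 ± 253 in EP and 3484 ± 199 in sham (SD, n = 5 each), a log2 fold change of -0.64 (SE 0.19, adjusted p = 0.0138, limma). Ahr was also lower than sham in the 3 gel groups. It had 2407, 2302, 2721, 2725 and 1709 in Cur/ZNP gel, 3149, 2645, 2856, 1921 and 1559.8 in ZNP gel, and 3164, 1454, 1564, 2351 and 1957 in Cur gel. Only Cur gel 1 reached into the sham range, and separations below sham were shown by 9.26% of genes in Cur/ZNP gel and 6.79% in ZNP gel. The log2 fold changes from sham were -0.57 in Cur/ZNP gel (adjusted p = 0.0238), -0.57 in ZNP gel (adjusted p = 0.0301) and -0.79 in Cur gel (adjusted p = 0.00343). The ZNP gel call was lost without ZNP gel 4, ZNP gel 5, Sham 1 or Sham 3 (adjusted p = 0.0807, 0.102, 0.0628 and 0.0576 in that order) and the Cur/ZNP gel call without Cur/ZNP gel 5 or Sham 1 (adjusted p = 0.0804 and 0.0502).

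The sham libraries with neuronal transcripts had Ahr counts of 3683, 3538 and 3159, around the 3584 and 3456 of Sham 2 and Sham 5. Without the 3 libraries the EP difference was -0.65, as large as with them, but with 2 sham rats left it no longer passed the test (adjusted p = 0.143). Skeletal muscle markers ran opposite to Ahr. Their summed counts were 161157 to 734322 in EP and 8151 to 161247 in sham. All 6 muscle markers were higher in EP, against 18.8% of all genes. Some of them were listed with earlier results of these data known, so this count is no independent finding. Over the 25 libraries Ahr and the muscle sum had a Spearman rho of -0.75, or -0.51 for deviations from the group means. The neutrophil sum ran with Ahr, at 0.57 and 0.51 in the same order. The part of nerve tissue, of muscle and of neutrophils in the Ahr difference was not tested.

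Arnt had normalized counts of 2487, 2414, 2252, 2354 and 1894 in the EP rats, against 688, 1841, 800 and 624 in Sham 1 to Sham 4 and 1625 in Sham 5. The EP and sham ranges did not overlap, a separation in that direction that 8.07% of genes showed. The means were 2280.3 ± 232 in EP and 1116 ± 572 in sham, and the log2 fold change was 1.17 (SE 0.21, adjusted p = 0.000455). The gel groups were as high as EP. Arnt had 2273, 2118, 2273, 2284 and 2607 in Cur/ZNP gel, 2021, 1904, 2276, 2228 and 2245 in ZNP gel, and 2146, 2406, 2394, 1924 and 2363 in Cur gel. Each of these libraries was above each sham library, a separation shown by 9.49% of genes in Cur/ZNP gel, 7.03% in ZNP gel and 8.84% in Cur gel. The differences were log2 fold changes of 1.20 in Cur/ZNP gel, 1.08 in ZNP gel and 1.15 in Cur gel (adjusted p = 0.000327, 0.00128 and 0.00044 in that order).

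The sham libraries split in Arnt. The 3 with high neuronal transcripts had 624 to 800 normalized counts, and the other pair had 1625 and 1841. Without the 3 libraries the EP difference was 0.39 (SE 0.12, adjusted p = 0.05002, just over the threshold), and the called genes over the whole table fell to 6.34%. In Cur/ZNP gel 2, the other library with high neuronal transcripts, Arnt was 2118. This was within the range of the treated groups but the lowest of its own group. The autonomic neuron sum ran opposite to Arnt, with a Spearman rho of -0.49 over the 25 libraries, or -0.45 for deviations from the group means. Skeletal muscle markers ran with Arnt, in the other direction than for Ahr. Their Spearman rho was 0.76 over the 25 libraries, or 0.34 for deviations from the group means. The part of nerve tissue and of muscle in the Arnt difference was not tested.

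**Figure D1:**
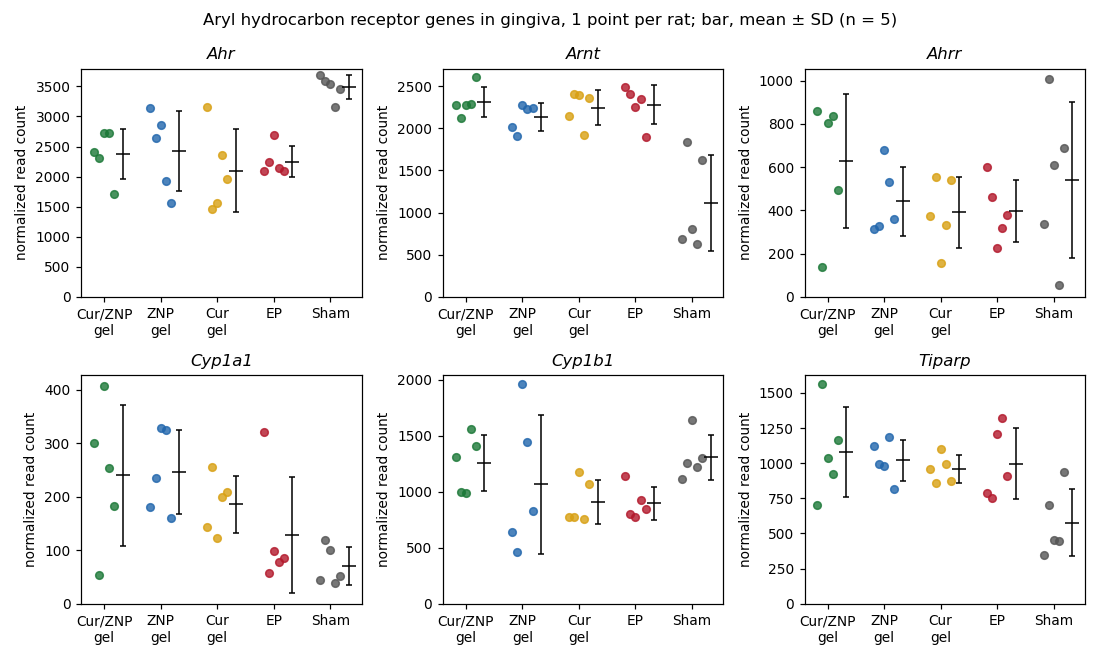
Normalized read counts (y axes, linear and starting at 0) of the 6 genes in each rat of the 5 groups (x axes), with the mean and SD of 5 rats beside the points. Ahr is highest in sham, where the means are 2249 in EP and 3484 in sham, Arnt and Tiparp are lowest in sham, and Cyp1a1 in EP is low but for 1 rat at 320.4.

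Ahrr, the repressor gene, varied more between rats of a group than between groups. It had 858, 139, 802, 838 and 496 normalized counts in Cur/ZNP gel, 314, 325, 678, 529 and 359 in ZNP gel, 374, 555, 156, 331 and 538 in Cur gel, 600.0 and 463 in EP 1 and EP 2, 225, 318 and 379 in EP 3 to EP 5, and 336, 1008, 610 and 54.9 in Sham 1 to Sham 4 and 688 in Sham 5. The sham range enclosed every other library. The EP difference from sham was -0.01 on the log2 scale (95% interval -1.27 to 1.24, adjusted p = 0.988), which does not show that the groups were alike. The order of the means was Cur/ZNP gel 626, sham 539, ZNP gel 441, EP 397 and Cur gel 391, and no neighbours in it differed beyond their SDs of 143 to 361.

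Low Ahrr went with low keratinocyte transcripts. The summed counts of 10 keratinocyte markers were lowest in Sham 4 (150474), followed by EP 3 (356389), EP 4 (509944), Cur gel 3 (648111) and Cur/ZNP gel 2 (721046), and Ahrr was the lowest of its group in each of Sham 4, EP 3, Cur gel 3 and Cur/ZNP gel 2. Over the 25 libraries Ahrr and the keratinocyte sum had a Spearman rho of 0.72, with 0.69 for deviations from the group means and 0.60 without Sham 4, EP 3 and EP 4. Ahrr also followed the fibroblast sum (0.61, 0.67 and 0.60 in the same order). It ran opposite to the sum of T cell and natural killer cell markers (-0.59, -0.53 and -0.45). These points share library composition, and the values are descriptions.

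Cyp1a1, the most inducible of the target genes, was higher than sham in the 3 gel groups and lay between sham and gels in EP. It had 320.4, 57.0, 98.7, 77.6 and 85.3 normalized counts in EP, against 44.3, 118, 99.7, 38.6 and 52.1 in sham. Apart from EP 1 the EP rats lay within the sham range. The EP difference was 0.69 (SE 0.48, adjusted p = 0.267), and 0.29 without EP 1. In the gel groups Cyp1a1 was 301, 54.1, 407, 254 and 182 in Cur/ZNP gel, 181, 234, 328, 324 and 160 in ZNP gel, and 143, 255, 123, 199 and 208 in Cur gel. Every ZNP gel and Cur gel rat was above every sham rat, separations shown by 7.03% of genes in ZNP gel and 8.84% in Cur gel, and so were 4 of the 5 Cur/ZNP gel rats. The exception, Cur/ZNP gel 2, was the library with high neuronal and low keratinocyte transcripts.

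Against sham, Cyp1a1 was 3.08-fold higher in Cur/ZNP gel (adjusted p = 0.0114), 3.65-fold higher in ZNP gel (adjusted p = 0.00661) and 2.78-fold higher in Cur gel (adjusted p = 0.0202). These contrasts share the sham rats. The Cur gel call was lost without Cur gel 2, without Sham 1 or without Sham 4 (adjusted p = 0.0524, 0.0539 and 0.0510 in that order). Without Sham 1, Sham 3 and Sham 4 the log2 differences were 1.33 in Cur/ZNP gel, 1.57 in ZNP gel and 1.18 in Cur gel, and none was called (adjusted p = 0.195, 0.186 and 0.279 in that order). Cyp1a1 rested on few reads, from 19 to 440 per library.

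Cyp1b1, the other monooxygenase gene, was abundant and did not pass the test in any comparison. It had 1138, 799, 777, 922 and 842 normalized counts in EP, against 1109, 1255, 1643, 1218 and 1299 in sham. All but EP 1 were below the sham range, and the log2 fold change was -0.54 (SE 0.27, adjusted p = 0.122). It was called with EP and sham fitted alone (adjusted p = 0.0363). In the gel groups it had 1305, 999.7, 991, 1556 and 1407 in Cur/ZNP gel, 642, 457, 1961, 1441 and 828 in ZNP gel, and 775, 770.5, 1172, 752 and 1071 in Cur gel. The ZNP gel rats spread over the whole range of the series (SD 622), whereas the Cur/ZNP gel rats were the closest to sham, with a log2 difference of -0.07 (95% interval -0.64 to 0.50).

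Tiparp had 786, 755, 1205, 1319 and 910 normalized counts in EP, against 344, 703, 454 and 447 in Sham 1 to Sham 4 and 934 in Sham 5. EP 3 and EP 4 were above the sham range, and Sham 5 reached into the EP range. The log2 fold change was 0.84 (SE 0.23, adjusted p = 0.00752). Tiparp was higher than sham in the gel groups too. It had 705, 1563, 1039, 923 and 1163 in Cur/ZNP gel, 1123, 995, 982, 1189 and 812 in ZNP gel, and 961, 859.5, 1100.0, 994 and 875 in Cur gel, with folds of 1.93, 1.87 and 1.77 against sham in that order (adjusted p = 0.00331, 0.0064 and 0.00874). As with Arnt, the lowest values were those of the sham libraries with neuronal transcripts. Without these 3 the EP difference was 0.26 (adjusted p = 0.542), and without Sham 4, EP 3 and EP 4 it was 0.52 (adjusted p = 0.149). With EP and sham fitted alone, Tiparp was not called either (adjusted p = 0.0615). In Cur/ZNP gel 2, with high neuronal transcripts, Tiparp was the highest of all libraries.

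Against sham, 4 of the 6 genes were called in each gel group, with Arnt, Tiparp and Cyp1a1 higher and Ahr lower. The background was 39.7% of genes in Cur/ZNP gel (20.2% higher and 19.5% lower), 32.1% in ZNP gel (16.7% higher and 15.4% lower) and 38% in Cur gel (18.9% higher and 19.1% lower). Without Sham 1, Sham 3 and Sham 4 the called members were 0 of 6 in EP, ZNP gel and Cur gel. In Cur/ZNP gel 1 of 6 was called, which was Arnt. The background in that fit was 6.34% of genes in EP, 2.08% in ZNP gel, 7.03% in Cur gel and 7.9% in Cur/ZNP gel.

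**Figure D2:**
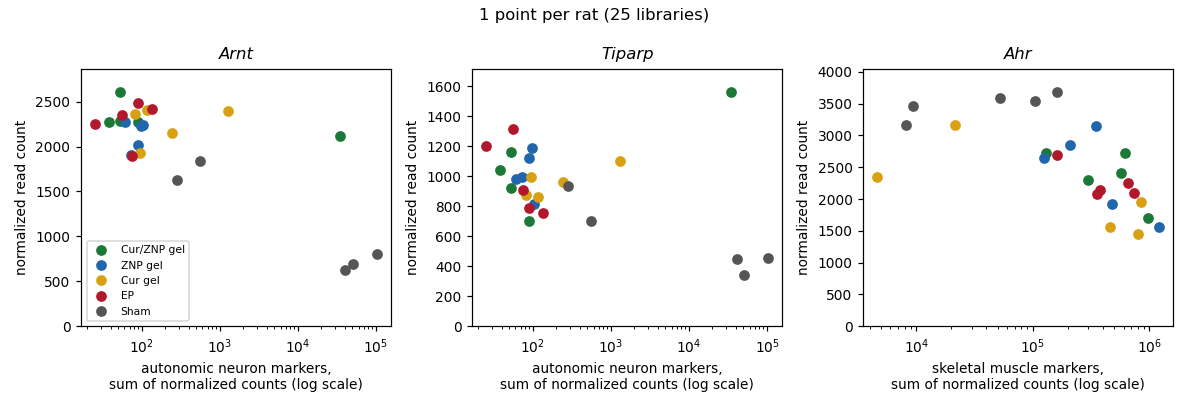
Normalized counts (linear y axes) of Arnt and Tiparp against the summed counts of autonomic neuron markers, and of Ahr against those of skeletal muscle markers (log x axes), with 1 point for each of 25 rats coloured by group. Sham 1, Sham 3 and Sham 4 sit at 40764 and above on the neuron axis with Arnt at 624 to 800. Cur/ZNP gel 2 at 34423 has an Arnt count of 2118, the lowest of its group.

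No gene of the 6 passed the test between a gel and EP. With 3 gels and 6 genes, 0 of 18 differences were called by limma, and 0 by edgeR and by DESeq2. At an unadjusted p under 0.05 there was 1 by limma (Cyp1a1 in ZNP gel), 0 by edgeR and 0 by DESeq2. The background was also near 0, at 0% of genes for Cur/ZNP gel, 0.00621% for ZNP gel and 0% for Cur gel by limma and 0% in each by edgeR, so that the count of members says little about them. By DESeq2 the background was 1.26% for Cur/ZNP gel, 0.379% for ZNP gel and 0.491% for Cur gel. With array weights limma called 7% of genes for Cur/ZNP gel, and 0 of the 6 members. For Ahr, Arnt and Tiparp the 9 log2 differences from EP lay between -0.15 and 0.10, and their 95% intervals between -0.56 and 0.59. As folds the intervals reached from 0.680 to 1.502.

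The exception in size was Cyp1a1. Its means were 239 ± 132 in Cur/ZNP gel, 246 ± 78.5 in ZNP gel, 185 ± 53.2 in Cur gel and 128 ± 109 in EP (SD, n = 5 each). The log2 differences from EP were 0.93 in Cur/ZNP gel (95% interval -0.07 to 1.93, adjusted p = 0.423), 1.17 in ZNP gel (0.17 to 2.18, unadjusted p = 0.0236, adjusted p = 1) and 0.78 in Cur gel (-0.22 to 1.78, adjusted p = 1). All ZNP gel and Cur gel rats were above 4 of the 5 EP rats, and 2 ZNP gel rats and 1 Cur/ZNP gel rat were also above EP 1. Without EP 1 the differences were 1.33, 1.58 and 1.19 in that order, and none was called. As folds the 3 intervals with all rats reached from 0.860 to 4.52.

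Cyp1b1 and Ahrr had wide or small differences from EP. Cyp1b1 was 0.47 higher in Cur/ZNP gel on the log2 scale (95% interval -0.10 to 1.04, adjusted p = 0.473), and 0.06 and 0.01 higher in ZNP gel and Cur gel. Ahrr differed by 0.48 in Cur/ZNP gel, 0.16 in ZNP gel and -0.08 in Cur gel, with intervals reaching from -1.33 to 1.74.

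**Figure D3:**
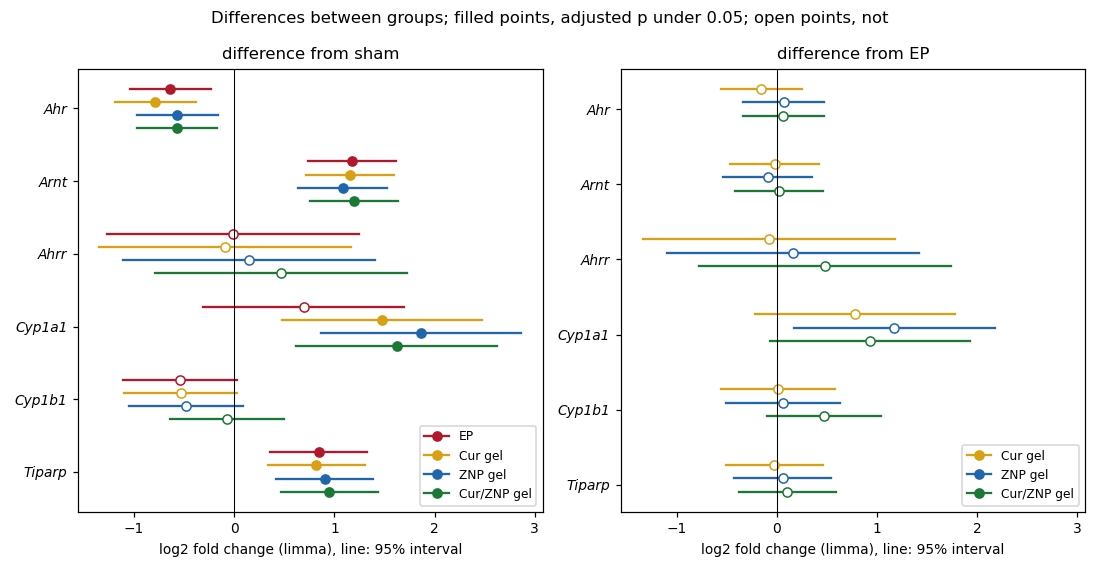
Log2 fold changes (x axes) of the 6 genes (y axes) with 95% intervals, for EP and the 3 gels against sham on the left and for the 3 gels against EP on the right, where filled points passed an adjusted p of 0.05. Arnt, Tiparp and Ahr have filled points against sham in all 4 groups, Cyp1a1 in the 3 gels, and every point against EP is open, with Cyp1a1 farthest from 0 at 0.78 to 1.17.

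The gels were also compared with each other and by their curcumin content. Between gels, 0 of 18 differences were called by limma, edgeR or DESeq2, with 0 at an unadjusted p under 0.05 by each, and the log2 differences lay between -0.24 and 0.56. The background was 0% in each of the 3 comparisons by limma and by edgeR. By DESeq2 it was 0.0373% for Cur/ZNP gel against Cur gel, 0.137% for Cur/ZNP gel against ZNP gel and 0.0435% for ZNP gel against Cur gel. With array weights limma called 8.07% of genes for Cur/ZNP gel against Cur gel, and 0 of the 6 members. The doses of curcumin and of zinc oxide differ between the combined and the single gels, so that these are comparisons of gels and not of agents at 1 dose. The groups with curcumin (Cur/ZNP gel and Cur gel) against those without (ZNP gel and EP) gave 0 of 6 members called (0 at an unadjusted p under 0.05) and a background of 0% by limma. In that contrast Cyp1a1 differed by 0.27 (95% interval -0.44 to 0.98), by 0.50 without Cur/ZNP gel 2 and by 0.47 without EP 1, and Cyp1b1 differed by 0.21 (-0.19 to 0.61). The interaction of curcumin with zinc oxide was called for 0 of 6 members, against 0.00621% of genes. It was -1.03 for Cyp1a1 (95% interval -2.44 to 0.39, adjusted p = 1), -0.56 without Cur/ZNP gel 2 (adjusted p = 1) and -1.43 without EP 1 (adjusted p = 1, though below 0.05 before adjustment).

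The transcripts within 2 of the genes could be followed as shares of the gene's counts. Arnt was carried by 2 long transcripts in all groups, with ENSRNOT00000044738 at 56.4% ± 4.46 in Cur/ZNP gel, 52.5% ± 9.44 in ZNP gel, 54.0% ± 4.11 in Cur gel, 58.8% ± 4.49 in EP and 55.3% ± 14.3 in sham. The mean share lay within 1 SD of sham in each of the other groups. Cyp1b1 was carried mostly by ENSRNOT00000084171, at 80.2% ± 2.12 in Cur/ZNP gel, 83.2% ± 3.19 in ZNP gel, 77.3% ± 3.71 in Cur gel, 80.8% ± 3.67 in EP and 92.0% ± 6.22 in sham. Its transcript ENSRNOT00000066363, at the upstream end of the gene (chr6:2314928-2316722, minus strand, Rnor_6.0), had 142, 73.9, 40.9, 189 and 113 normalized counts in EP, against 0, 102, 0, 0 and 83.5 in sham. The libraries at 0 were again Sham 1, Sham 3 and Sham 4. How the study's quantifier divided reads between overlapping transcripts is not given in the sources used here, and the shares were not tested.

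The genes lie on 4 rat chromosomes in Rnor_6.0. Ahr is at chr6:54963990-55001464 (minus strand) and Cyp1b1 at chr6:2307808-2316722 (minus strand), Arnt at chr2:196594303-196651179 (plus strand) and Tiparp at chr2:157316266-157341469 (plus strand), Ahrr at chr1:31603297-31698329 (plus strand) and Cyp1a1 at chr8:62472095-62478147 (plus strand). All of their transcripts are annotated as protein coding.

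Around the 6 genes, 6 lists of 48 pathway genes were followed. The lists cover receptor chaperones, other basic helix-loop-helix PAS proteins, coregulators, other target genes, enzymes that make ligands from tryptophan, and electron donors of the monooxygenases. Of the chaperones, 0 were higher and 2 of 5 lower in EP than in sham (median -0.24). The one with the smaller p was Ptges3, which encodes the HSP90 cochaperone p23 (-0.73, adjusted p = 0.000323). Without Sham 1, Sham 3 and Sham 4, 0 of 5 were called.

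Of the other PAS proteins, 0 were higher and 2 of 9 lower (median -0.21). Arntl, which encodes the clock factor BMAL1, was -2.36 (adjusted p = 1.3e-05), and Npas2, which encodes another clock factor, was -1.55 (adjusted p = 0.000554). Arntl had 221, 296, 217, 332 and 315 normalized counts in EP, against 1738, 2705, 955, 1047 and 1156 in sham, with no overlap. Both were also called without Sham 1, Sham 3 and Sham 4 (-2.70 and -1.92). Clock, not called with all libraries (0.60), was then -0.55 (adjusted p = 0.0282). Its normalized count was 177 in Sham 4, against 5204 to 7504 in the other sham rats. The time of day of sampling was not given in the sources used here. Hif1a and Epas1, which encode the hypoxia factors that also pair with ARNT, did not pass the test (-0.21 and 0.26).

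Of the coregulators, 6 of 8 were higher and 1 lower (median 0.46). The 4 with the smallest p among the higher were Ncoa2 (2.04) and Ncoa3 (1.18), which encode p160 coactivators, Ep300 (1.99), which encodes the acetyltransferase p300, and Ncor1 (0.52), which encodes a corepressor. Crebbp, which encodes CBP, was lower (-0.46), and is named after its values were seen. Ncoa2 had 3259, 3374, 2798, 3197 and 2899 normalized counts in EP, against 499.9, 2054, 489, 295 and 1631 in sham, where Sham 1, Sham 3 and Sham 4 were the lowest, as for Arnt. Without Sham 1, Sham 3 and Sham 4, 3 of 8 coregulators were higher and 0 lower, with Ncoa2 at 0.76 and Ep300 at 0.70.

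Of the other target genes, 1 of 11 tested was higher and 1 lower (median -0.18). Ereg, which encodes the growth factor epiregulin, was 3.16 (SE 1.01, adjusted p = 0.0176) and Hes1, which encodes a Notch-responsive repressor, was -0.54 (adjusted p = 0.00568). Ereg was 49.6, 52.4 and 0 in Sham 1, Sham 3 and Sham 4 and 393 and 484 in Sham 2 and Sham 5, and it was not called without Sham 1, Sham 3 and Sham 4. Cyp1a2, the third monooxygenase of the family, did not pass the filter on low counts. Of the ligand enzymes, 2 of 8 tested were higher, Kyat3 (1.42, adjusted p = 0.00316) and Kyat1 (1.12, adjusted p = 0.00199), which encode kynurenine aminotransferases, and 1 was lower, Il4i1, an amino acid oxidase (-1.65, adjusted p = 0.0122). The median was 0.00. Of these 8, 2 were higher and 0 lower without Sham 1, Sham 3 and Sham 4, and Il4i1 was then -1.07 (adjusted p = 0.195). Ido1, the first enzyme of the kynurenine route, did not pass the test (-0.20). Of the electron donors, Por, the reductase that serves all microsomal cytochrome P450 enzymes, was higher (0.74, adjusted p = 0.000627), and Cyb5a and Cyb5r3 were lower (-0.49 and -0.47). Por was still called without Sham 1, Sham 3 and Sham 4 (0.79, adjusted p = 0.0131), but without them Cyb5a was -0.050 (adjusted p = 0.845) and Cyb5r3 was -0.43 (adjusted p = 0.186). The background for the counts with all libraries is the 37.6% given above, with a median of 0.01. For the counts without Sham 1, Sham 3 and Sham 4 it is 6.34%, with 377 of 16092 genes higher and 643 lower.

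**Figure D4:**
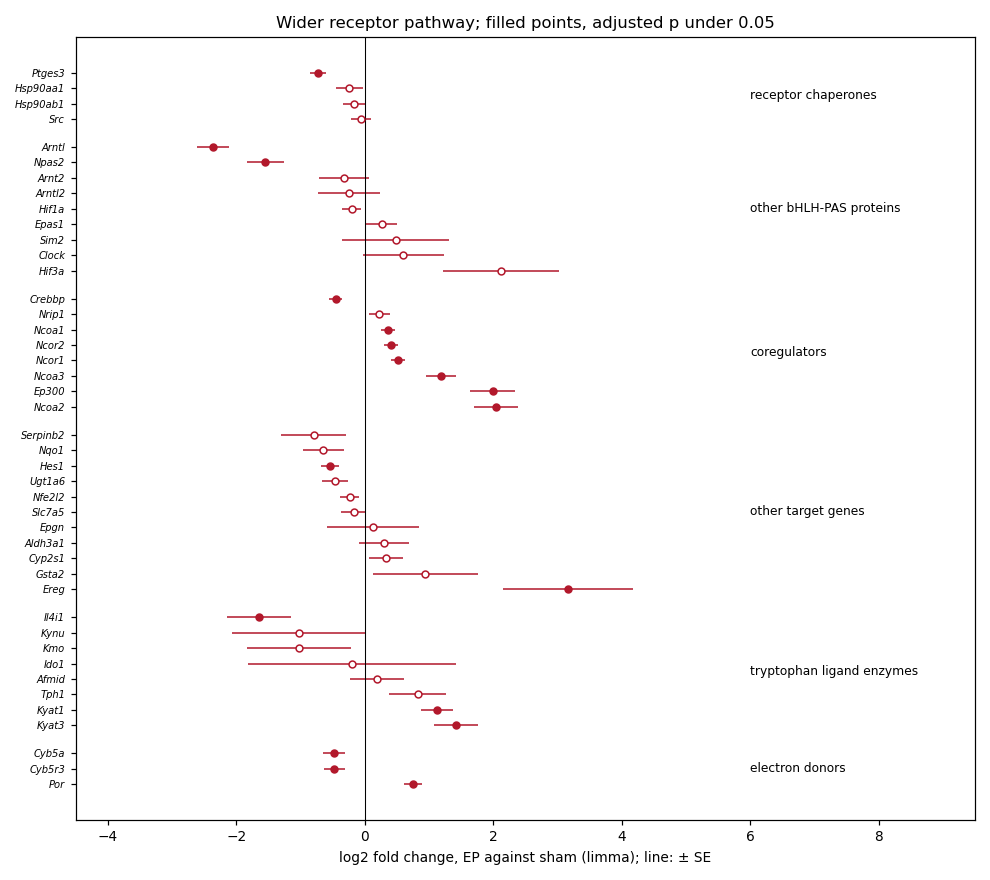
Log2 fold changes between EP and sham (x axis, with SE) of the tested genes of the 6 pathway lists that are reported here (y axis, grouped by list), where filled points passed an adjusted p of 0.05. Of the coregulators 6 of 8 are filled to the right of 0, Ereg lies farthest to the right at 3.16 and Arntl farthest to the left at -2.36.

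Against EP, 0 genes of the 6 lists were called in any gel group. Aldh3a1, which encodes an aldehyde dehydrogenase and is a classical receptor target, is named after its values were seen, from 11 tested target genes that did not all lie on 1 side of EP. Epgn, which encodes the growth factor epigen, was -1.56 in Cur/ZNP gel against EP (adjusted p = 0.370). The normalized counts of Aldh3a1 were 30854, 10713, 32768, 39115 and 27427 in Cur/ZNP gel, 23154, 32609.7, 25241, 32091 and 34434 in ZNP gel, and 15121, 28267, 16878.5, 17425 and 35477 in Cur gel, against 21369, 9868, 6459, 6029.8 and 23166 in EP, where EP 1 and EP 5 were within the range of the gels. For Cyp1a1, EP 5 was low at 85.3. The log2 differences from EP were 1.19 in Cur/ZNP gel (adjusted p = 0.293), 1.36 in ZNP gel (adjusted p = 1) and 0.91 in Cur gel (adjusted p = 1). The EP rats with low Aldh3a1, EP 2 to EP 4, had keratinocyte sums of 747319, 356389 and 509944, against 1521760 in EP 1 and 1617940 in EP 5, and EP 3 and EP 4 held nasal gland transcripts. What part these play in the difference was not tested.

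Among themselves the 6 genes did not move as a block. Over the 25 libraries, Ahr and Arnt had a Spearman rho of -0.67, which was -0.32 for deviations from the group means. The closest pair within groups was Ahrr and Cyp1a1, with a rho of 0.73 for deviations from the group means and 0.50 over the raw values. Cyp1a1 and Cyp1b1, often induced together, had a rho of 0.11. Cyp1b1 went with fibroblast markers (0.59) and Arnt with endothelial markers (0.72), also for deviations (0.55 and 0.80). Neither link was particular. For deviations Cyp1b1 also went with endothelial markers (0.61), and Ahrr and Cyp1a1 with fibroblast markers (0.67 and 0.63). Over the raw values Cyp1b1 ran opposite to olfactory mucosa (-0.79), mast cell (-0.68) and salivary gland markers (-0.66). For deviations the values were -0.69, -0.48 and -0.50 in that order. The olfactory sum held only 2 of the 5 listed genes, with 24.8 to 465 normalized counts per library. These values share depth, normalization and tissue makeup and are descriptions.

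**Figure D5:**
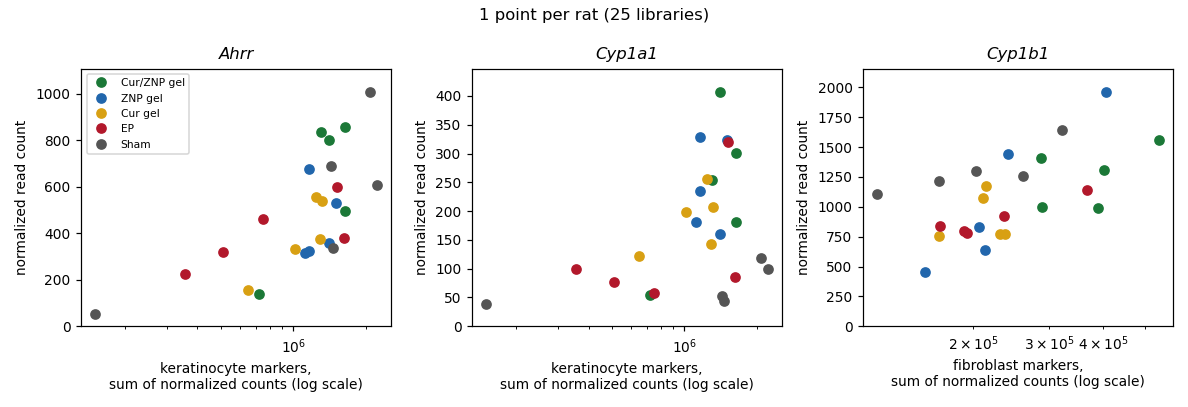
Normalized counts (linear y axes) of Ahrr and Cyp1a1 against the summed counts of keratinocyte markers, and of Cyp1b1 against those of fibroblast markers (log x axes), with 1 point for each of 25 rats coloured by group. Ahrr is lowest, at 54.9, in the library with the lowest keratinocyte sum, 150474, and the Spearman rho is 0.72 for Ahrr and 0.27 for Cyp1a1.

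For each gene, the 3 genes with the highest Spearman rho over the 25 libraries were taken from 14349 genes. Among those reported here, Ahr was most like Lpar6 (0.91) and Lpcat1 (0.91), and Arnt was most like Smarca2 (0.93), Fzd4 (0.92) and Nfic (0.91). Ahrr was most like Ptgs1 (0.90), AABR07029596.1 (0.88) and Ppfibp1 (0.86). Cyp1a1 was most like Nrg4 (0.89), Gsn (0.84) and Qpct (0.82), and Nrg4 was also first by Pearson's r (0.86). Cyp1b1 was most like Olfml2b (0.83) and P3h3 (0.81), and Tiparp was most like AABR07039234.1 (0.81), Dusp18 (0.80) and Prrg4 (0.79). By Pearson's r, Lpar6 for Ahr and Prrg4 for Tiparp were first too. Other ranks depended on the measure. For Arnt, Smarca2, Fzd4 and Nfic ranked 310, 917 and 272 by Pearson's r, and for Ahrr, Ptgs1 ranked 189. None of the 6 genes was among the 3 most like another.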

How the data were processed

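Total RNA of gingiva from 25 rats (TRIzol) went into stranded libraries depleted of ribosomal RNA. The table deposited by the authors holds a signal for each Ensembl transcript (Rnor_6.0), namely its reads over the library's size factor, and the submitters' processing notes name DESeq2. The aligner and quantifier are not given in the sources used here. Since 100% of the values were a whole number of steps (tolerance 0.01), whole reads were recovered. The 41078 transcripts were summed per symbol within a chromosome to 30547 genes, and 840 blank lines were left out.

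Genes reaching a CPM of 2 in any library (16092) were tested in 1 model of 25 libraries with limma 3.58.1 (trend and robust, R 4.3.3) on log2(normalized count + 1), two-sided. Alternatives were edgeR 4.0.16 and DESeq2 1.42.0 on the recovered reads, other pseudocounts (0.5 and 5), filters (none, or 5 libraries at a CPM of 1 or more), TMM scaling, groups compared alone, a replicate block, array weights and left-out libraries. The code was tested on simulated data. P-values measure the spread between these rats, and no batch is labelled.

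The members, the lists and several nasal gland, muscle and neuron markers were chosen with earlier results of these data known. Named genes were the 6 members, up to 4 called genes of each list with the smallest p between EP and sham, and the 3 genes most like each member. A few genes that this rule or the lists hold are not reported here. Clock, Hif1a, Epas1, Crebbp, Ido1, Cyp1a2, Aldh3a1 and Epgn were named outside this rule, after their values were seen. Promoter sequences are from RefSeq, build GRCr8.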

Additional observations from a re-analysis of the deposited data

Results flagged for a closer look

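In each group of 5 rats, the highest and the lowest value of each of the 6 genes was compared with the rest by its gap to the nearest rat as a share of the group's range, and a share over 0.71 was taken as standing apart. Of 30 groups examined, 2 had such a rat, and chance gives about 1 in 20. Ahr in EP 3 was 2686 normalized counts, above the other EP rats at 2087 to 2248 but below the sham rats. EP 3 is also a library with nasal gland transcripts. Cyp1a1 in EP 1 was 320.4 normalized counts, above the other EP rats at 57.0 to 98.7. EP 1 had the highest Ahrr (600.0) and Cyp1b1 (1138) of the EP group. What part these values play was not tested.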

How the results depend on the processing

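The count of members called was 3 of 6 between EP and sham and 4 of 6 between each gel and sham. Without Sham 1, Sham 3 and Sham 4 it was 0 in EP, ZNP gel and Cur gel and 1 in Cur/ZNP gel. This alternative was chosen after seeing the data and left 2 sham rats in the fit. Of all genes, it called 6.34% in EP, 2.08% in ZNP gel, 7.03% in Cur gel and 7.9% in Cur/ZNP gel. With groups compared alone the member count was 2 in ZNP gel, against 12.2% of all genes. The calls lost were those of Ahr (adjusted p = 0.0696) and Tiparp (adjusted p = 0.0514). With each rat left out in turn the member count was 3 to 3 in EP, 3 to 4 in Cur/ZNP gel and 3 to 4 in Cur gel. In ZNP gel it was 3 to 5, where Cyp1b1 was called without ZNP gel 3 (-0.75). Between gels and EP and between gels the count stayed 0 under each alternative. The causes were not tested.

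Directions turned only for differences that were not called. Ahrr against sham was -0.66 in Cur/ZNP gel and -0.98 in ZNP gel without Sham 1, Sham 3 and Sham 4, -0.23 in Cur/ZNP gel and -0.55 in ZNP gel without Sham 4, EP 3 and EP 4, -0.27 in ZNP gel with edgeR, -0.29 with DESeq2 and -0.0069 with array weights, and 0.0028 in EP with TMM scaling. Ahrr in ZNP gel against EP was -0.17 without Sham 4, EP 3 and EP 4. Cur gel against EP gave 0.23 for Tiparp and -0.037 for Cyp1b1 without these 3, 0.071 for Tiparp and 0.0033 for Arnt with array weights, and -0.0088 for Cyp1b1 with TMM scaling. Cyp1b1 in Cur/ZNP gel against sham was 0.081 with array weights.

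With single rats left out, Ahrr against sham ranged from -0.71 to 0.34 in EP, from -0.23 to 0.94 in Cur/ZNP gel, from -0.55 to 0.50 in ZNP gel and from -0.78 to 0.26 in Cur gel, and Cyp1b1 in Cur/ZNP gel from -0.16 to 0.015. Against EP, the ranges in Cur/ZNP gel were -0.043 to 0.055 for Arnt and -0.042 to 0.24 for Tiparp. In ZNP gel they were -0.037 to 0.22 for Ahr, -0.024 to 0.33 for Ahrr, -0.21 to 0.32 for Cyp1b1 and -0.029 to 0.17 for Tiparp. In Cur gel they were -0.26 to 0.22 for Ahrr, -0.086 to 0.034 for Arnt, -0.090 to 0.098 for Cyp1b1 and -0.11 to 0.087 for Tiparp.

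The rat numbers are shared between groups and were not used as pairs in the main model. Of 50 same-numbered pairs, 17 had deviations correlated over 0.1 and 12 matched their own number best. The correlations ran from -0.39 to 0.51. They share tissue makeup and do not show whether the rats were paired. With a replicate block no call of a member changed, and Ahr between EP and sham had an adjusted p of 0.0117. Over all genes, EP against sham called 6057, and 1020 without Sham 1, Sham 3 and Sham 4, 3380 with the groups alone and 6832 with DESeq2. Cur/ZNP gel against EP called 0, and 1127 with array weights and 202 with DESeq2, and Cur/ZNP gel against Cur gel called 0, and 1298 with array weights and 6 with DESeq2. DESeq2 also called 61 genes between ZNP gel and EP (limma 1) and 79 between Cur gel and EP (limma 0). Against limma's 0, it called 22 genes when Cur/ZNP gel was set beside ZNP gel, while ZNP gel beside Cur gel gave 7. For curcumin content it called 21 (0 by limma), and for the interaction 40 (1). Low read numbers limit Cyp1a1 and, in Sham 4, Ahrr.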
